A study of Mus musculus with 15 samples.

Results

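Gene expression in hearts treated with isoproterenol, whatever the length of treatment, was compared with that in saline hearts. The comparison set all 11 treated samples, 4 after 4 days, 3 after 8 days and 4 after 11 days, against all 4 saline samples, so the 15 samples of the series all entered it. Each time was given equal weight, and a gene was called higher or lower from the mean of its 3 fold changes. Animals were 12-week-old male C57BL6 mice (C57BL6/J in the methods) for which no engineered allele is named, and the treated mice received 50 mg/kg/day of isoproterenol under the skin while the controls received saline. Total RNA came from a small piece of the perfused and frozen heart, and the study describes the RNA as ventricular. A library therefore holds every cell type of that piece. In such bulk tissue, fewer cells of a type and less RNA per cell cannot be told apart. The single saline group served all 3 times, and neither its day of collection nor the hour at which hearts were taken was stated.

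Isoproterenol is a synthetic catecholamine that activates the beta-adrenergic receptors of cardiomyocytes, which raise cyclic AMP through a stimulatory G protein and adenylyl cyclase and so activate protein kinase A. Phosphorylation by that kinase speeds calcium release and re-uptake, and the heart beats faster and more strongly. Under sustained stimulation receptor kinases and arrestins damp the signal, cardiomyocytes enlarge and fibroblasts lay down collagen. The adult heart takes most of its energy from fatty acids, and a shift from fat toward glucose and a return of fetal genes are textbook features of the enlarged heart.

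Libraries held 25.4 to 118 M estimated counts, of which 47.5 to 58.4% were of the mitochondrial genome and 39.7 to 50.4% were mitochondrial ribosomal RNA. In 1 treated library, 8-day A, the pair Lars2 and CT010467.1 took 15.8% of the counts, against 0.0116 to 0.0916% elsewhere, and its scaling factor of 0.704 lay under the 0.82 to 1.186 of the others. Heart identity was plain in every sample. The 13 cardiomyocyte markers summed to 77500 to 86300 CPM (counts relative to the library total, scaled by the trimmed mean of M values) in saline hearts and to 73600 to 87800 CPM in treated hearts. Levels below are in these scaled CPM, which do not correct for gene length and are compared only within a gene. Differences are log2 fold changes with their standard error (SE).

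Of 26862 genes tested with the quasi-likelihood test of edgeR, 1171 were higher in the treated hearts (4.36%) and 1120 were lower (4.17%) at a Benjamini-Hochberg adjusted p under 0.05. Most changes were small, with 220 genes higher and 178 lower by at least 2-fold. A stricter count, with no test, asked for all 11 treated samples on one side of all 4 saline samples. It found 416 genes with every treated sample above (1.55% of those tested) and 372 with every one below (1.38%), and 395 and 351 of these were also called. The number of calls leaned on the saline group of 4. Without saline C the counts were 700 higher and 754 lower, and without saline A 709 genes were higher. Without saline B, 818 genes lay fully above and 759 fully below, and without saline D 566 lay fully below. Apart from rescaling and the filter on low counts, this count can only grow when a heart is left out. Its rise therefore does not bear on how far the calls leaned on a heart. With library size alone as scaling 540 genes were higher and 373 lower, and 22 of the 111 called genes under the naming rule lost their calls, namely Mylk3, Myl3, Cacnb2, Akap6, Ppargc1b, Klf9, Suclg2, Idh2, Cox6a2, Uqcrc1, H2-T22, H2-T23, Dnajb5, Zfp36, Srsf2, Hopx, Tbx5, Des, Abcc9, Cd79a, Loxl2 and Vcan. Without 8-day A, the library that stood apart, 1164 genes were higher, 1170 were lower and 1417 differed between the treatment times, against 1538 with it.

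The times did not act as 1 group for every gene. A test that the 3 treated means are equal called 1538 genes (5.73%), and 439 of the 2291 genes with a mean effect were among them. In 348 of these 439 the effect at 4 days was farthest from 0, against 43 genes at 8 days and 48 at 11 days. By contrast, 1673 of the called genes had all 3 differences between times bounded within 1 log2 unit by their 95% intervals, 792 of them higher and 881 lower. Over all genes tested, 13710 met that bound. The count of genes that differed between times fell to 610 without 4-day A, to 988 without 4-day C and to 990 without 11-day B. The steady called genes numbered 1088 without saline C.

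Ankrd1 is a nuclear and sarcomeric stretch-response protein of cardiomyocytes (chromosome 19, 36111961 to 36120099, GRCm38.p6). It showed the largest steady rise after that of Mt2 (2.70) among genes of at least 5 CPM, predicted-gene and clone names left out. Its level was 316.5, 451.9, 158.3 and 155.0 CPM in saline hearts A to D, and 753 at the lowest, 1107 at the median and 1699 at the highest of the treated hearts. Every treated heart lay above every saline heart. The rise was 2.05 ± 0.24 (SE; adjusted p = 2.91e-05), with 2.23, 2.12 and 1.80 at 4, 8 and 11 days. Pam, the enzyme that amidates secreted peptides, rose by 1.19 ± 0.091 from 238 to 279 CPM in saline to 435 to 668 CPM (adjusted p = 7.54e-07). Its treated hearts were also all above the saline hearts.

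**Figure D1:**
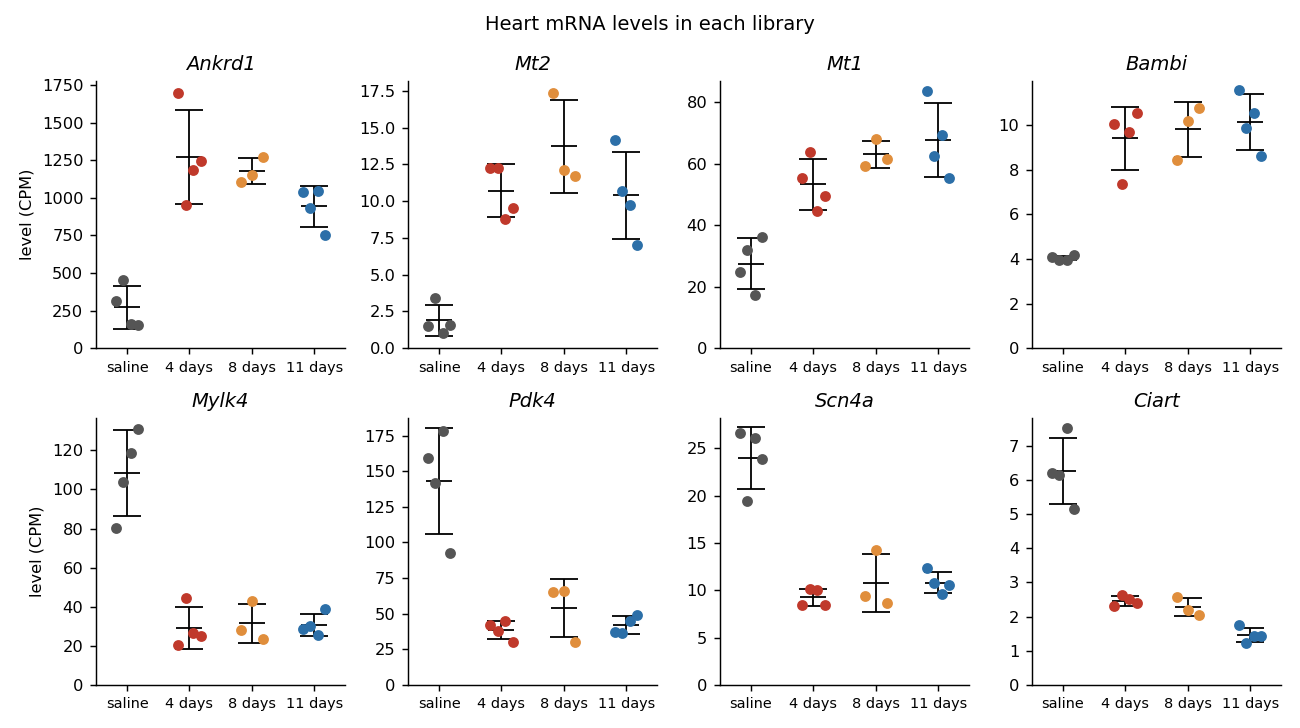
Levels of 8 genes in each library, in scaled CPM on a linear axis from 0, by group. Points are single hearts and bars are the mean ± SD of the group (n = 4, 4, 3 and 4 for saline, 4, 8 and 11 days). The 4 upper genes lie higher and the 4 lower genes lie lower in all 11 treated hearts than in any saline heart. Bambi spans 3.94 to 4.18 CPM in saline and 7.37 to 11.6 CPM in treated hearts, and Mylk4 spans 80.2 to 131 CPM in saline and 20.3 to 44.3 CPM in treated hearts.

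Among the 10 highest fold changes with no overlap were secreted proteins of fibroblasts and of the acute phase. Serpina3n, a serine protease inhibitor (chromosome 12, 104406729 to 104414329), stood at 1.71 to 3.08 CPM in saline and at 8.37, 12.6 and 35.6 CPM (lowest, median, highest) after treatment. It rose by 2.66 ± 0.21 (adjusted p = 8.65e-07), most at 4 days, and its effects differed between times (adjusted p = 0.000695). Thbs4, a matricellular thrombospondin, rose by 3.04 ± 0.55 from 0.882 to 1.10 CPM to a median of 7.95 CPM. The lowest treated value was 1.24 CPM at 11 days and the highest 41.5 CPM at 4 days, so the lowest treated heart lay close to the highest saline heart. Prg4, the joint lubricant proteoglycan, rose by 2.27 ± 0.33, and the giant scaffold protein gene Ahnak2 by 1.82 ± 0.26. The rest of this set were Mt2, Col14a1, Ifi27l2a, Adamts12 and Lum, each described with its group below.

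The 10 lowest fold changes with no overlap were of another kind: a kinase, metabolic enzymes, channel subunits, a clock gene and antigen presentation. Mylk4, which belongs to the myosin light chain kinases (chromosome 13, 32700834 to 32783954), was at 80.2, 104, 119 and 131 CPM in saline hearts. Treated hearts held 20.3 CPM at the lowest, 27.8 at the median and 44.3 at the highest. All 11 were under the lowest saline heart, and the fall was -1.84 ± 0.16 (adjusted p = 2.57e-06) with -1.90, -1.79 and -1.82 at the 3 times. Pdk4, the kinase that switches off pyruvate dehydrogenase when fat is burned (chromosome 6, 5483351 to 5496309), fell by 1.69 ± 0.16. It ranged from 92.5 to 178.6 CPM in saline and from 29.97 to 65.6 CPM after treatment (adjusted p = 4.15e-06). The test between times gave adjusted p = 0.953 for Mylk4 and 0.427 for Pdk4.

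Signaling from the receptor was tested on 37 genes, of which 2 were higher and 9 lower, with a median of -0.05 against -0.009 over all genes. The count higher was 1 without saline A or saline C, and with library size alone 3 were lower. None of the 37 passed the test between times. Among receptors, the beta-1 receptor gene Adrb1, the main beta-receptor of cardiomyocytes, held 6.12, 6.21, 7.76 and 6.12 CPM in saline and 3.05, 4.70 and 6.59 CPM (lowest, median, highest) after treatment. It fell by 0.53 ± 0.10 (adjusted p = 0.00326), although the groups overlapped. The alpha-1 receptors Adra1a and Adra1b fell by 0.61 ± 0.09 and 0.71 ± 0.12.

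Below the receptor, the cyclases and the G protein gave smaller values. Gnas, the stimulatory G protein, was at -0.17 ± 0.06 (adjusted p = 0.105), Adcy5 at 0.09 ± 0.068 and Adcy6 at 0.27 ± 0.085 (adjusted p = 0.0554). Grk5, a receptor kinase that desensitizes beta-receptors, rose by 0.38 ± 0.075 (adjusted p = 0.00334). Its 4 saline hearts held 16.5 to 20.6 CPM and its treated hearts 20.8 to 27.8 CPM, so all were higher, by a narrow margin. Grk2, the other main receptor kinase of the heart, was at -0.09 ± 0.063 and the arrestin gene Arrb1 at 0.17 ± 0.077, neither past the threshold. Further along, the kinase A subunit Prkaca fell by 0.26 ± 0.058, its anchor Akap6 by 0.45 ± 0.055 (adjusted p = 5.49e-05) and Rgs2, which turns off Gq signals, by 0.83 ± 0.16. Of the cyclic nucleotide phosphodiesterases, Pde3b rose by 0.54 ± 0.14 and Pde4b fell by 0.25 ± 0.073. Adrb1, Gnas, Adcy5, Adcy6, Grk2, Grk5, Arrb1, Prkaca, Rgs2 and the phosphodiesterases were chosen after their values were seen.

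In calcium handling, 6 of 30 genes of the sarcoplasmic reticulum were lower and none higher by edgeR (median -0.09). At an unadjusted p under 0.05, 1 was higher and 12 lower. DESeq2 without length offsets, limma voom and the settings without 4-day B or saline C each called 1 higher, and with library size alone 3 were lower. Atp2a2 encodes the pump that returns calcium to the store (chromosome 5, 122453513 to 122502225). Saline hearts held 6256, 5908, 6317 and 6702 CPM and treated hearts 3477, 4139 and 4937 CPM at the lowest, median and highest. There was no overlap, and the fall was -0.62 ± 0.083 (adjusted p = 0.000111), at each time between -0.73 and -0.50. Cacnb2, a subunit of the L-type calcium channel, fell by 0.45 ± 0.068 (adjusted p = 0.000333). Hrc, a calcium-binding protein of the store, fell by 0.54 ± 0.093, and Strit1, a small protein that activates the pump, by 1.12 ± 0.24. Phospholamban, Pln, the inhibitor of the pump, was at -0.01 ± 0.10 (adjusted p = 0.984), and the release channel Ryr2 at -0.07 ± 0.078.

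Of 30 channels and pumps of the action potential, 8 were lower and 2 higher (median -0.14). Scn4b, a beta subunit of the sodium channel, ranged from 17.2 to 34.0 CPM in saline and from 5.40 to 15.2 CPM after treatment. It fell by 1.41 ± 0.21 (adjusted p = 0.000236). The sodium channel gene Scn4a, better known from skeletal muscle, fell by 1.23 ± 0.10 from 19.4 to 26.6 CPM to 8.40 to 14.3 CPM (adjusted p = 1.4e-06). No treated heart reached a saline heart for either gene. Among those that rose was the T-type calcium channel Cacna1h (1.23 ± 0.27), a channel typical of the fetal ventricle, which with Hrc, Strit1, Pln and Ryr2 was named after the values were seen.

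In the sarcomere list 3 of 31 genes were higher and 7 lower (median -0.10). Mylk3, the cardiac myosin light chain kinase, fell by 0.38 ± 0.061 from 379 to 406 CPM to 254 to 362 CPM (adjusted p = 0.00048). The regulatory and essential light chains Myl2 and Myl3 fell by 0.41 ± 0.087 and 0.42 ± 0.079. Mybpc3, the myosin-binding protein, rose by 0.37 ± 0.083 (adjusted p = 0.00732). Without saline A or without saline C, 1 gene of this list was higher.

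The fetal and hypertrophic program rose in part, with 10 of 31 genes higher, 1 lower (Synpo2l, -0.48 ± 0.072) and a median of 0.33. By time the median was 0.53, 0.24 and 0.20 at 4, 8 and 11 days. Nppa, the atrial natriuretic peptide, was at 13.9, 36.1, 9.66 and 5.57 CPM in saline and at 20.95, 71.4 and 349 CPM (lowest, median, highest) after treatment. It rose by 2.67 ± 0.53 (adjusted p = 0.00324) although the groups overlapped, and the effects differed between times (3.85, 2.58 and 1.58; adjusted p = 0.0406). Acta1, skeletal actin, rose by 1.73 ± 0.37, from 7.64 to 52.3 CPM to 29.4 to 172.8 CPM. With 8 and 11 days alone it was at 1.27 (adjusted p = 0.0531), and with treated libraries as 1 group the adjusted p was 0.0502. Fhl1, a stretch sensor of the sarcomere, rose by 1.34 ± 0.21, and Uchl1, a deubiquitinase, by 0.93 ± 0.13, and for both every treated heart was above every saline heart.

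Several textbook members of that program were not called. Nppb, brain natriuretic peptide, was at 0.25 ± 0.35 (adjusted p = 0.753). The fetal myosin Myh7 was at 0.78 ± 0.32 (adjusted p = 0.158) and the adult myosin Myh6 at -0.10 ± 0.09 (adjusted p = 0.578). Saline hearts already spread widely, from 50.02 to 139.2 CPM for Myh7 and from 4.74 to 35.4 CPM for Nppb. Fhl1, Uchl1, Synpo2l, Nppb, Myh7, Myh6 and Mybpc3 were chosen after their values were seen. Among 36 cardiac transcription factors, 3 were higher and 3 lower (median -0.04). Tbx5 fell by 0.43 ± 0.092 and Hopx by 0.44 ± 0.071, and Tbx20 rose by 0.53 ± 0.087, while Gata4 was at -0.11 ± 0.076.

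Genes of fatty acid use gave the broadest fall of any pathway list. Of 46 genes for uptake and oxidation, 39 were lower and none higher, with a median of -0.50, and in 24 of them every treated heart was under every saline heart. Only 3 passed the test between times, with list medians of -0.60, -0.52 and -0.39 at 4, 8 and 11 days. Hadha, which carries out late steps of each round of oxidation, held 695, 511, 589.9 and 691 CPM in saline and 308, 371.5 and 421 CPM at the lowest, median and highest after treatment. It fell by 0.75 ± 0.078 (adjusted p = 8.26e-06) without overlap. Over the settings that left out 1 library in turn, between 34 and 41 of the 46 were lower, and 34 were lower when the 4-day hearts were not used.

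The fall took in each step of the pathway. At entry into the cell Cd36, the fatty acid transporter, fell by 0.48 ± 0.08 and the binding protein Fabp3 by 0.74 ± 0.10. At entry into the mitochondrion Cpt1b, the muscle carnitine palmitoyltransferase, fell by 0.55 ± 0.088 (adjusted p = 0.000561). In the matrix Ech1 fell by 1.04 ± 0.10 from 255 to 408 CPM to 130 to 218 CPM, and Acadm, the medium-chain dehydrogenase, by 0.44 ± 0.10. Ucp3, an uncoupling protein tied to fat oxidation, fell by 1.84 ± 0.24. Plin5, which coats lipid droplets at mitochondria, fell by 0.95 ± 0.091 (adjusted p = 4.15e-06) from 31.2 to 41.4 CPM to 15.8 to 26.2 CPM. The regulators moved less: 3 of 25 regulators of oxidative metabolism were lower and none higher by edgeR, DESeq2 or limma voom, with Ppargc1b at -0.50 ± 0.10, Klf9 at -0.39 ± 0.10, Ppara at -0.16 ± 0.078 and Ppargc1a at 0.03 ± 0.092, the last 2 not called. At an unadjusted p under 0.05, 1 was higher and 8 lower. The count lower was 1 without saline C or saline D, where Klf9 was not called (adjusted p 0.0715 and 0.098), and 0 with library size alone. Hadha, Fabp3, Cpt1b, Ech1, Acadm, Ucp3, Ppara and Ppargc1a were chosen after their values were seen.

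**Figure D2:**
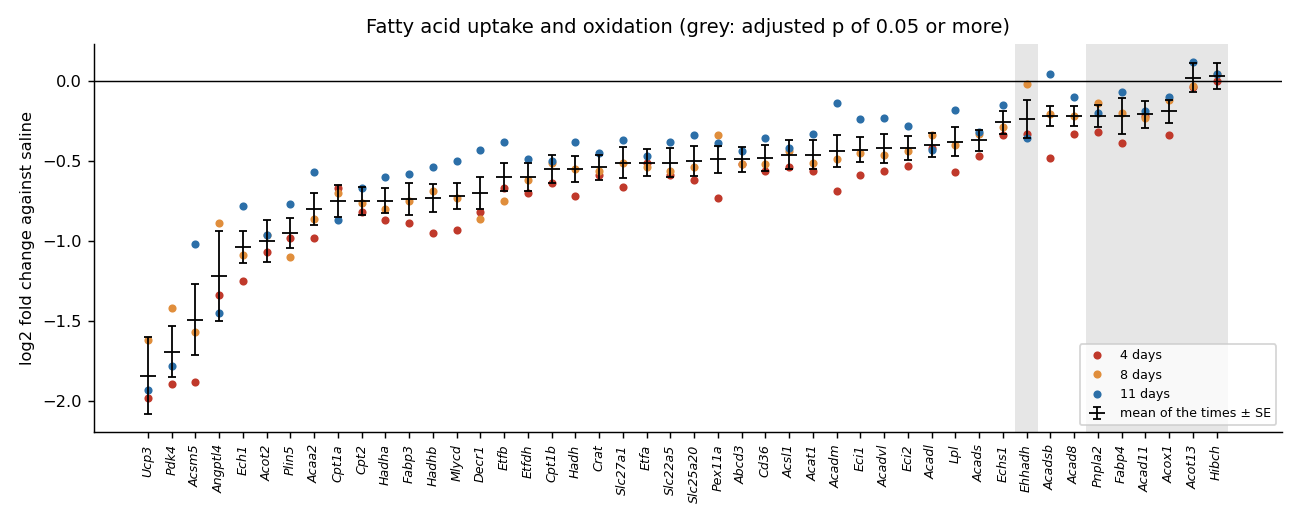
Log2 fold change against saline for the 46 genes of fatty acid uptake and oxidation, ordered by the mean effect. Coloured points are the 3 times and black marks the mean of the times ± SE. Grey columns are the 7 genes not called. The median falls from 4 days (-0.60) to 11 days (-0.39) in size, and Ucp3 lies lowest at every time, at -1.98, -1.62 and -1.93.

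Other mitochondrial pathways fell less and leaned more on single saline hearts. In the tricarboxylic acid cycle 7 of 32 genes were lower (median -0.15), among them Idh2 (-0.45 ± 0.088) and Suclg2 (-0.39 ± 0.074). In the nuclear-encoded respiratory chain 8 of 61 were lower (median -0.16), with Cox6a2, the muscle form of a cytochrome oxidase subunit, at -0.49 ± 0.10 and Uqcrc1 at -0.26 ± 0.063. With library size alone no gene of either list was called. Suclg2 also lost its call with effective lengths as offsets (adjusted p = 0.276), and Uqcrc1 without saline A, C or D (0.0528 to 0.0586). The cycle count was 3, 13, 4 and 2 without saline A, B, C and D in turn. The chain count was 1, 14 and 1 without saline A, B and D, 5 without 4-day C, and 4 without 4-day A, 8-day C, 11-day C or 11-day D. Cytosolic ribosomal proteins gave no edgeR call among 69 genes (median -0.05). At an unadjusted p under 0.05, 1 was higher and 9 lower, while DESeq2 called 2 lower, or 3 with length offsets, and limma voom 1. By edgeR 5 were lower without saline B, 2 without 8-day A and 1 without saline C.

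Glucose genes moved both ways, with 9 of 36 higher and 6 lower (median 0.05). Pfkfb2, the cardiac enzyme that makes the activator of phosphofructokinase, stood at 43.2 to 56.6 CPM in saline and at 73.6, 99.3 and 130.3 CPM after treatment. It rose by 1.02 ± 0.11 without overlap (adjusted p = 8.93e-06). Pfkfb1, the liver form of that enzyme, fell by 1.55 ± 0.20, and Fbp2, the muscle fructose bisphosphatase that works in the reverse direction, by 1.46 ± 0.14. Gapdh rose by 0.45 ± 0.095 and the glucose transporter Slc2a1 by 0.42 ± 0.086, while Slc2a4, the insulin-dependent transporter, was at 0.20 ± 0.083 (adjusted p = 0.165). The lactate genes Ldhb and Slc16a1 fell by 0.32 ± 0.076 and 0.37 ± 0.074. Pfkfb1, Gapdh, Slc2a1, Slc2a4, Ldhb and Slc16a1 were chosen after their values were seen.

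For branched-chain amino acid and ketone body breakdown, 9 of 20 genes were lower and 1 higher (median -0.22), and 5 were lower without saline D and 2 with library size alone. Bdh1, which oxidizes hydroxybutyrate (chromosome 16, 31422280 to 31458901), rose by 1.35 ± 0.19 from 9.40 to 24.6 CPM to 24.9 to 54.5 CPM, with no overlap. In creatine supply 1 of 11 genes was higher, the creatine transporter Slc6a8 (0.48 ± 0.067), and 2 were without 4-day B or 11-day A.

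Lipid storage and synthesis gave 6 higher and 12 lower of 40 (median -0.05), and the desaturases split. Scd4 was at 4.55, 3.21, 4.79 and 2.49 CPM in saline hearts and at 0.244, 0.409 and 0.946 CPM (lowest, median, highest) in treated hearts. It fell by 2.97 ± 0.24 (adjusted p = 8.65e-07), on 988 reads in saline and 303 in treated libraries. Scd1 and Scd2, enzymes of the same family, rose by 0.63 ± 0.12 and 0.58 ± 0.083. Acot1, a thioesterase that frees fatty acids from coenzyme A, fell by 2.11 ± 0.19 from 2.97 to 5.87 CPM to 0.669 to 2.07 CPM (adjusted p = 2.57e-06). Scd1 and Scd2 were chosen after their values were seen, and reads of such close relatives may be split between them.

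Collagens and other matrix genes were higher in the mean, but the mean stood mostly for day 4. Of 22 fibrillar and network collagens, 15 were higher and none lower, with a median of 1.03, and 18 of the 22 passed the test between times. The list medians were 1.98, 0.65 and 0.24 at 4, 8 and 11 days. With the mean of 8 and 11 days alone, 4 of the 22 were higher, and with the treated hearts taken as 1 group 4 were. Col3a1, a fibrillar collagen, held 80.0 to 129 CPM in saline and 100.1, 306 and 2351 CPM (lowest, median, highest) after treatment. It rose by 2.09 ± 0.37, with 3.91, 1.61 and 0.75 at the 3 times (adjusted p between times 0.000253). In Col14a1 (1.66 ± 0.27), Col16a1 (1.14 ± 0.19) and Col4a5 (0.43 ± 0.085), and in no other gene of the list, every treated heart lay above saline.

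Matricellular proteins and proteoglycans followed the same order of times. Of 56 genes, 27 were higher and 1 lower (median 0.36, and 0.83, 0.28 and 0.11 by time), and 31 passed the test between times. Without saline A 17 were higher, and with 8 and 11 days alone 9 were. Lum, the collagen-binding proteoglycan lumican, was higher in every treated heart than in any saline heart. It stood at 16.7 to 19.5 CPM in saline and at 31, 40.4 and 82.1 CPM after treatment, a rise of 1.35 ± 0.18 with 1.79, 1.14 and 1.12 by time. Bgn, biglycan, rose by 1.18 ± 0.14 (adjusted p = 4.96e-05), and its effect went from 1.86 at 4 days to 0.57 at 11 days (adjusted p between times 0.000293). Postn, periostin, made by activated fibroblasts, rose by 2.63 ± 0.53, with 4.58, 1.85 and 1.44 by time.

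In collagen processing 10 of 22 genes were higher and 1 lower (median 0.26), and 1 was higher without day 4. The 1 lower call was lost without any 1 of saline A, C and D, 4-day C and D, 8-day A and B, and 11-day A and B. P3h2, a prolyl hydroxylase of collagen, rose by 0.79 ± 0.15 with no overlap, and Bmp1, which trims procollagen, by 0.60 ± 0.11. P3h2 was not called with effective lengths as offsets (adjusted p = 0.0807), nor Bmp1 with 8 and 11 days alone (0.0754). Matrix proteases and their inhibitors went both ways, with 12 of 30 higher and 6 lower (median 0.58), and 6 were higher without day 4. Mmp2, a gelatinase, rose by 1.23 ± 0.18 from 19.1 to 25.8 CPM to 37.1 to 75.8 CPM, with no overlap and effects of 1.34, 1.22 and 1.13. Adamts15 rose by 1.03 ± 0.14 and Adamts12 by 1.40 ± 0.23. The protease inhibitor Timp1 rose by 2.54 ± 0.47 and its relative Timp4 fell by 1.14 ± 0.17. Col3a1, Postn, Timp1 and Timp4 were chosen after their values were seen.

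Ligands and receptors of the TGF-beta family changed in few members, with 6 of 42 higher and 3 lower (median 0.06). Bambi, a decoy receptor that blocks TGF-beta and BMP signals (chromosome 18, 3507923 to 3516404), was the steadiest gene named. It held 4.07, 3.97, 3.94 and 4.18 CPM in saline and 7.37, 10.04 and 11.6 CPM (lowest, median, highest) after treatment. No heart overlapped, and the rise of 1.28 ± 0.10 (adjusted p = 8.65e-07) was 1.23, 1.28 and 1.33 at the 3 times. The BMP receptor Bmpr1a fell by 0.52 ± 0.068, and the TGF-beta receptor Tgfbr2 rose by 0.35 ± 0.067. The ligand genes Tgfb1 (0.30 ± 0.13) and Tgfb2 (-0.11 ± 0.095) were not called.

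Growth factors of vessels and fibroblasts gave 11 higher and 7 lower of 51 (median 0.06), and 7 higher without saline A or without saline C. Igfbp5, which binds insulin-like growth factors, rose by 0.56 ± 0.077, and Hbegf by 0.57 ± 0.09. Fgf1, an acidic fibroblast growth factor of cardiomyocytes, fell by 0.54 ± 0.069 from 96.1 to 122 CPM to 64.2 to 82.4 CPM. In the Wnt pathway 5 of 39 were higher and 1 lower (median 0.02), the latter not called without saline C. The receptor Fzd2 rose by 1.2 ± 0.20, on 149 reads in saline, and the secreted modulator Sfrp2 by 2.34 ± 0.43, on 101 reads in saline. Of renin-angiotensin, endothelin and natriuretic genes 5 of 31 were higher and 3 lower (median 0.08), and 3 were higher without any 1 of saline A, 4-day A, 4-day C, 4-day D, 8-day C, 11-day B and 11-day D. Apln, the peptide apelin, fell by 1.09 ± 0.15 from 4.81 to 7.22 CPM to 2.06 to 3.92 CPM, with no overlap. Ace, the angiotensin-converting enzyme, rose by 0.66 ± 0.11. Tgfbr2, Tgfb1, Tgfb2, Hbegf and Ace were chosen after their values were seen.

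Immune genes split by pathway. The genes of peptide presentation on MHC class II, used by macrophages, dendritic cells and B cells, were lower in 6 of 19 cases and higher in none by edgeR, with a median of -0.81. At an unadjusted p under 0.05, 2 were higher and 11 lower, and DESeq2 called 2 higher. By edgeR 2 were higher without 4-day B and 1 without 8-day A or saline B. By time the median was -0.12, -0.73 and -1.77. H2-Aa, an alpha chain of the class II molecule, was at 17.3, 20.7, 17.6 and 20.01 CPM in saline and at 2.40, 5.88 and 9.59 CPM (lowest, median, highest) after treatment. It fell by 1.65 ± 0.18 (adjusted p = 1.71e-05) with no overlap, by -1.28, -1.41 and -2.25 at the 3 times. H2-Eb1 (-1.68 ± 0.19), H2-Ab1 (-1.52 ± 0.22) and the invariant chain Cd74 (-1.57 ± 0.21) were also lower in every treated heart. Their transactivator Ciita was at -0.65 ± 0.21 (adjusted p = 0.059).

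MHC class I genes showed 3 higher of 19 (median 0.13), namely H2-T22 (0.44 ± 0.11), H2-T23 (0.51 ± 0.12) and H2-T24. These neighbours are close relatives, and the split of reads between them is uncertain. The count was 1 without saline A or saline D and 5 without saline B.

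Interferon-stimulated genes were higher in 20 of 50 cases and lower in 1, with a median of 0.51 and 0.54, 0.40 and 0.53 at the 3 times, and 3 passed the test between times. This count leaned on the saline hearts: it was 9, 32, 11 and 10 without saline A, B, C and D in turn. Ifit3b, a cytosolic antiviral protein of the Ifit family, held 2.0, 2.0, 2.10 and 2.11 CPM in saline and 3.47, 4.78 and 6.99 CPM after treatment. It rose by 1.29 ± 0.16 (adjusted p = 7.18e-05) with no overlap. Its neighbour Ifit3 rose by 1.15 ± 0.21, and because both genes are near-identical their reads may be split between them. Ifi27l2a rose by 1.52 ± 0.21 from 1.52 to 3.21 CPM to 4.18 to 12.7 CPM. Isg15, a ubiquitin-like interferon product, was at 0.79 ± 0.31 (adjusted p = 0.134).

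The promoter of Ifit3b is printed because it had the smallest p of the interferon genes called. It comes from RefSeq on GRCm38.p6 (chr19:34607707-34607986, plus strand, 250 bases before to 30 after the start), and capitals mark the core of the interferon-stimulated response element, GAAANNGAAA, on either strand.
Ifit3b: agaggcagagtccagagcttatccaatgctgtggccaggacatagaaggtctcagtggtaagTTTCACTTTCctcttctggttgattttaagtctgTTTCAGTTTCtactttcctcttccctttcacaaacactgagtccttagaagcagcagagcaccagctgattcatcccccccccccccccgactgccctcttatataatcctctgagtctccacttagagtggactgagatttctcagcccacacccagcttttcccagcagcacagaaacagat
This window holds 2 matches, and that of Ifit3 holds 2 as well. In windows of 300 bases, the core was found in 9 of the 14 higher interferon genes with a window (64.3%), in 21 of the 35 tested list genes with a window (60.0%) and in 3.49% of 27025 gene promoters. The share among the genes that rose was close to that of the whole list.

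Complement and acute phase genes were higher in 16 of 37 cases and lower in 2 (median 0.41), with 10 higher without saline A or without saline C. Serpina3n led this list. Cfb, a protease of the alternative pathway, rose by 1.39 ± 0.26 with no overlap. Cp, ceruloplasmin, fell by 0.57 ± 0.077 (adjusted p = 0.000118).

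Among chemokines and inflammatory mediators 5 of 43 were higher and 5 lower (median 0.15). Retnla, a secreted product of alternatively activated macrophages (chromosome 16, 48842551 to 48844461), was at 1.46, 1.76, 1.04 and 1.56 CPM in saline. In treated hearts it ranged from 0, in 1 library, to 0.126 CPM, with a median of 0.0609. The fall of -4.47 ± 0.28 (adjusted p = 2.85e-08) rests on 301 reads in saline and 38 in treated libraries, and was -4.61, -4.35 and -4.46 at the 3 times. The eosinophil attractants Ccl11 (-1.46 ± 0.28) and Ccl24 (-1.36 ± 0.28) were lower too. Ackr3, a scavenging chemokine receptor, rose by 0.66 ± 0.10. Ccl8 and Lgals3, galectin-3, each rose by 1.80, the former by 3.62, 0.42 and 1.35 at the 3 times. Cfb, Ciita, Isg15, Ifit3, Ccl8, Ccl11, Ccl24 and Lgals3 were chosen after their values were seen.

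Metallothioneins bind zinc and copper and are induced by metals and by glucocorticoids. Of 13 genes in that list 2 were higher and none lower (median -0.03), and both are the broadly expressed metallothioneins. Mt2 (chromosome 8, 94172664 to 94173568) was at 1.53, 3.38, 1.06 and 1.56 CPM in saline and at 7.0, 11.7 and 17.4 CPM (lowest, median, highest) after treatment. It rose by 2.70 ± 0.25 (adjusted p = 3.55e-06), by 2.60, 2.96 and 2.55 at the 3 times. Mt1 was at 24.6, 31.9, 17.1 and 36.2 CPM in saline and at 44.55, 61.6 and 83.5 CPM after treatment, a rise of 1.16 ± 0.15 (adjusted p = 0.000103). No treated heart overlapped a saline heart for either gene.

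Both promoters are printed because the 2 neighbouring genes rose together. They come from RefSeq on GRCm38.p6, plus strand, 250 bases before to 30 after the start (Mt1 chr8:94178839-94179118, Mt2 chr8:94172368-94172647), and capitals mark the core of the metal response element, TGCACNC or TGCGCNC, on either strand.
Mt1: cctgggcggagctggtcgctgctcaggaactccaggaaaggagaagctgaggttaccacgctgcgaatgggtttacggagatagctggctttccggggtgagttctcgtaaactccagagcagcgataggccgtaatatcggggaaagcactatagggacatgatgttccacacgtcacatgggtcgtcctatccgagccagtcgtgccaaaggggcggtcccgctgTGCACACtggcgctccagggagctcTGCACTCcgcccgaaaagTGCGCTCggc
Mt2: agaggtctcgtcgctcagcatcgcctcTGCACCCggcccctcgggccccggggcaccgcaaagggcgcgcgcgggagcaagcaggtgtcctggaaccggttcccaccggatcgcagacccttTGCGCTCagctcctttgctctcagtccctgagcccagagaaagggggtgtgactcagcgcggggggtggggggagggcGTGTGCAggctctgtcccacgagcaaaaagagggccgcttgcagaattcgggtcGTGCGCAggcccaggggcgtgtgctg
There are 3 matches in the window of Mt1 and 4 in that of Mt2. Windows of 300 bases held the core in 7 of the 12 zinc-handling genes with a window (58.3%) and in 25.6% of all 27025.

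Glucocorticoid-responsive genes gave 4 higher and 9 lower of 26 (median -0.24), with 5 lower without saline D. Besides Mt2, Glul, glutamine synthetase, rose by 0.77 ± 0.11 from 159 to 216 CPM to 219 to 431 CPM. Fkbp5 and Tsc22d3, both induced by the glucocorticoid receptor, were at 0.31 ± 0.12 (adjusted p = 0.118) and -0.20 ± 0.11 (adjusted p = 0.276).

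Stress pathways inside the cell gave calls in both directions. In the unfolded protein response 8 of 31 genes were lower and 2 higher (median -0.15), with 1 higher without saline A or saline B. Hspa5, the main chaperone of the endoplasmic reticulum, was at 255, 254, 163 and 197 CPM in saline and at 94.8, 117 and 155 CPM after treatment. It fell by 0.87 ± 0.11 with no overlap (adjusted p = 5.34e-05), and Hyou1 fell by 0.57 ± 0.074. Ern1, the sensor of that response, rose by 0.55 ± 0.09. Heat shock proteins showed 2 higher and 4 lower of 32 (median -0.12), with Hspb7 at 0.48 ± 0.095 and Dnajb5 at -0.37 ± 0.069, and with 6 higher and 2 lower without saline B. Without saline C or D 1 was higher, and with library size alone 1 was higher and 1 lower. Antioxidant genes showed 7 higher and 5 lower of 44 (median -0.08), with 9 lower without saline B and 8 without 8-day A. The glutathione peroxidases Gpx1 and Gpx3 rose by 0.59 ± 0.074 and 0.70 ± 0.10 with no overlap.

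Immediate early genes and MAPK phosphatases, which answer stimuli within minutes, were lower in 6 of 35 cases and higher in 2 (median -0.26). Without 4-day C 10 were lower and without saline B 3 were. No gene was higher without saline A, saline D, 8-day B or 8-day C, and 1 was without saline C, 8-day A, 4-day A, 4-day B or 4-day C. With library size alone 1 was lower and none higher. Dusp1 fell by 0.80 ± 0.11 from 17.9 to 22.2 CPM to 9.40 to 16.0 CPM, and Zfp36, which destabilizes inflammatory messages, by 0.47 ± 0.11. Fos itself was at -0.84 ± 0.27 (adjusted p = 0.061). Fkbp5, Tsc22d3, Ern1 and Fos were chosen after their values were seen.

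The circadian clock list changed in 17 of its 26 genes, 12 lower and 5 higher (median -0.20). In the clock, Arntl and Clock drive the Per, Cry and Nr1d genes, whose products feed back to repress them. Ciart, a repressor of the clock (chromosome 3, 95878503 to 95882251), was at 6.21, 6.15, 7.51 and 5.15 CPM in saline and at 1.24, 2.2 and 2.62 CPM (lowest, median, highest) after treatment. It fell by 1.65 ± 0.10 (adjusted p = 2.85e-08) with no overlap, by -1.37, -1.47 and -2.10 at the 3 times. Nr1d1, the repressor REV-ERB alpha, fell by 1.23 ± 0.11 from 19.1 to 25.9 CPM to 6.21 to 17.8 CPM. Arntl, which Nr1d1 represses, went the other way, from 0.846, 0.677, 0.549 and 0.507 CPM to 1.25, 1.74 and 3.30 CPM. It rose by 1.57 ± 0.14 (adjusted p = 2.91e-06), by 1.07, 1.47 and 2.18.

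Other output genes of the clock lay on both sides in the same way. Nfil3 rose by 0.48 ± 0.11, while Dbp fell by 0.75 ± 0.079, Hlf by 0.81 ± 0.088, Per1 by 1.08 ± 0.17 and Per2 by 0.65 ± 0.097. Clock and Cry1 were at 0.03 ± 0.069 and -0.11 ± 0.098 and were not called. The effects differed between times for 10 of the 26 genes, and for Ciart, Nr1d1, Arntl, Dbp and Nfil3 the effect was largest at 11 days. These genes cycle over the day, and the hour of collection cannot be told apart from the treatment here. All of these except Ciart and Nr1d1 were chosen after their values were seen, and Nr1d1 overlaps Thra, so that reads of both can be confused if strand was not used.

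**Figure D3:**
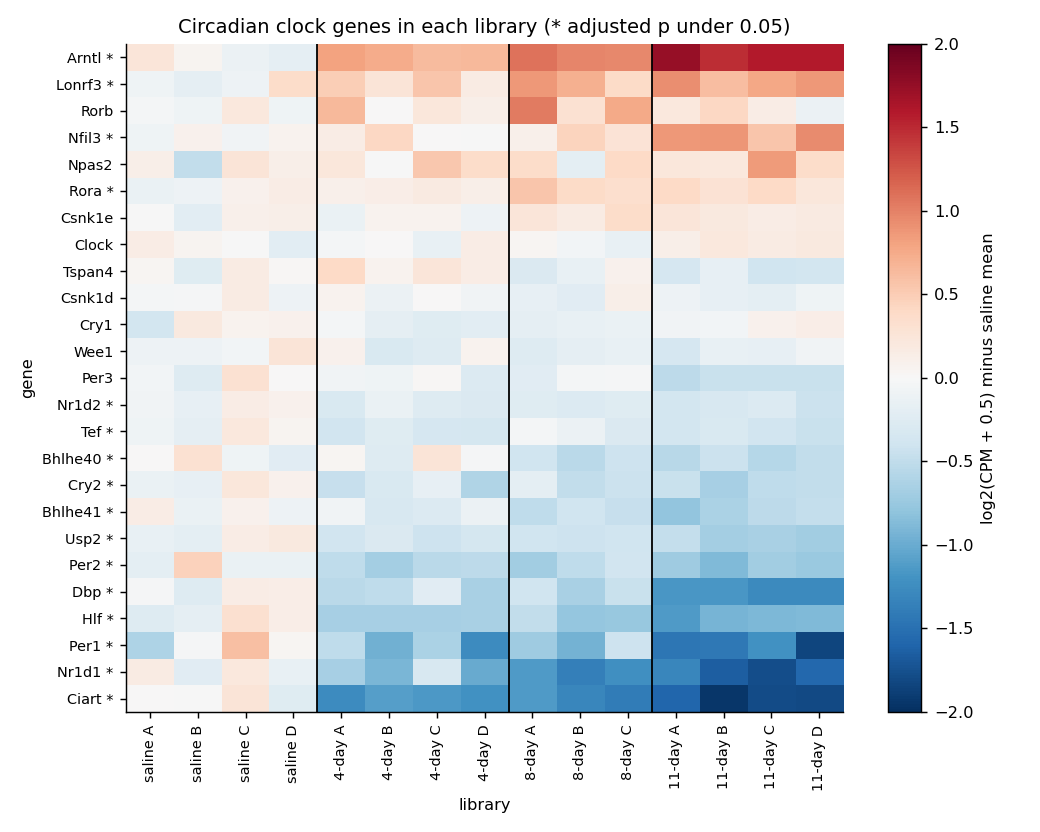
Levels of 25 clock genes in each library as log2(CPM + 0.5) minus the saline mean, from blue (lower) to red (higher), with colours limited at 2 log2 units. An asterisk marks the genes called. Ciart runs from -1.95 to -1.10 in the treated hearts against -0.25 to 0.26 in saline, and Arntl from 0.63 to 1.74 against -0.18 to 0.24.

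The promoter of Ciart is printed because the clock drives its targets through the E-box, CACGTG, a palindrome marked in capitals. It comes from RefSeq on GRCm38.p6 (chr3:95882199-95882478, minus strand, 250 bases before to 30 after the start).
Ciart: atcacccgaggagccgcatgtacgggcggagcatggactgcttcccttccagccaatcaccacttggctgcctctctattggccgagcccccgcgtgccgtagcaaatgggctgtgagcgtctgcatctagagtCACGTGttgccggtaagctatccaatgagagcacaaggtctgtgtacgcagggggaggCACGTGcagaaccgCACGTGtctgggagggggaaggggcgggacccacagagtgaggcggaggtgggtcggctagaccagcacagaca
This window holds 3 E-boxes, and those of Nr1d1 and Dbp hold none. In windows of 300 bases, an E-box was found in 4 of the 10 lower clock genes with a window (40.0%), in 1 of the 4 higher ones (25.0%), in 6 of 21 tested clock genes (28.6%) and in 7.22% of all genes.

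Genes of DNA replication and mitosis showed how a mean can hide the times. Of 41 genes 6 were higher and 1 lower, yet 33 passed the test between times, and the list median went from 1.95 at 4 days through 0.47 to -0.59 at 11 days. Mki67, a nuclear protein of proliferating cells, was at 4.05 to 8.71 CPM in saline. At 4 days it was at 46.4, 14.4, 19.6 and 25.5 CPM and at 11 days at 1.2, 2.15, 2.51 and 1.28 CPM, above and then below every saline heart. Its mean effect of 0.40 ± 0.28 was not called (adjusted p = 0.451). Top2a, the topoisomerase of dividing cells, had effects of 2.63, 0.68 and -1.40. The 1 lower gene, Cenpf, a kinetochore protein, fell by 1.49 ± 0.28 from 40.6 to 92.7 CPM to 9.99 to 45.8 CPM. E2f1 rose by 0.91 ± 0.20 (0.52 with 8 and 11 days alone, adjusted p = 0.19), and without saline A 3 and without saline C 2 genes of this list were higher.

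Growth arrest genes were called in 3 of 23 cases, all higher (median 0.09), with Cdkn1a, the inhibitor p21, at 0.95 ± 0.20 and Phlda3 at 0.64 ± 0.15. Without saline D 5 were higher and 1 lower. Without saline A 2 were higher and Phlda3 was not called (adjusted p = 0.0614), nor was it with effective lengths as offsets (0.128). Muscle protein breakdown and autophagy gave 6 higher and 2 lower of 33 (median 0.03), and 1 lower in 11 of the 15 settings that left out 1 library. Sqstm1, the autophagy receptor p62, rose by 0.57 ± 0.065 from 118 to 124 CPM to 143 to 207 CPM (adjusted p = 2.31e-05), and Asb2, a ubiquitin ligase subunit, by 0.34 ± 0.054. Both had no overlap. Among 31 tubulins and cytoskeletal genes 3 were higher and 5 lower (median -0.03), and 6 were higher without saline B. Tubb4b fell by 1.04 ± 0.096 from 54.8 to 66.1 CPM to 20.7 to 37.1 CPM with no overlap, and Tuba4a by 1.34 ± 0.19. Tubulin genes are close relatives, and Tuba4a also overlaps Stk16.

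Splicing factors were lower in 11 of 46 cases and higher in none by edgeR (median -0.12), with 6 lower without saline C and 7 without saline D. At an unadjusted p under 0.05, 20 were lower and none higher, and DESeq2 with length offsets called 1 higher. With library size alone 1 was lower, and Srsf2 was not called (adjusted p = 0.0799). In 6 of the 11 every treated heart was under every saline heart. Srsf2 held 36.1 to 38.3 CPM in saline and 24.9, 27.8 and 30.4 CPM after treatment, a fall of 0.43 ± 0.058 (adjusted p = 0.000107). Hnrnpa3 fell by 0.47 ± 0.067. These were small falls with a narrow spread, and neither gene passed the test between times (adjusted p = 0.753 and 0.975).

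Long non-coding RNAs (lncRNAs) had 57 higher (0.839%) and 155 lower (2.28%) of 6794 tested, with a median of -0.06. Both shares were under the 4.36% higher and 4.17% lower over all genes. Level was not matched in this comparison, and the share called was larger among genes of at least 5 CPM (7.83% higher and 9.06% lower). Whether lncRNAs respond less than other genes of like level was not tested. Of 16797 protein-coding genes 1102 were higher and 920 lower. Gm10635, a lincRNA, was at 3.33, 1.41, 4.68 and 5.15 CPM in saline and at 0.160, 0.610 and 1.35 CPM after treatment. It fell by 2.63 ± 0.26 (adjusted p = 6.01e-06) with effects of -3.19, -3.02 and -1.66. 2010001K21Rik fell by 2.67 ± 0.42, Gm28979 by 1.87 ± 0.23 and Gm49891 by 1.68 ± 0.24, on 280, 277 and 670 reads in saline. All 4 were lower in every treated heart.

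The 4 highest lncRNAs all share their locus with other genes, and without strand their reads cannot be told apart from those. 2410006H16Rik, a host of small nucleolar RNAs, rose by 1.14 ± 0.17, Plet1os, antisense to Plet1, by 1.05 ± 0.12, Gm38211, inside Col5a2, by 0.99 ± 0.22, and Zfas1 by 0.63 ± 0.11. Of 42 known lncRNAs 5 were higher and 3 lower (median 0.12). The count higher was 3 without saline A, B or C, and 1 was lower without saline C, 8-day B or 8-day C. Mhrt, the antisense partner of the myosin gene Myh7, fell by 0.75 ± 0.093 from 30.3 to 36.4 CPM to 14.8 to 25.8 CPM, with no overlap. Malat1, an abundant nuclear RNA, was at 0.18 ± 0.084 (adjusted p = 0.208) and was named after its values were seen.

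The contrast of steady and passing effects is plainest in the genes at either end. Steady genes with the highest rises were Mt2, Ankrd1, Bdh1, Ifit3b and Bambi, and those with the lowest were Mylk4, Pdk4, Scn4b, Scn4a and Apln, each with 3 effects within 1 log2 unit of one another. Among called genes the test between times gave its smallest p for Fbn1, Loxl2, Tnc, Fstl1 and Vcan. Tnc, tenascin C of healing tissue, was at 46.2, 7.81, 16.7 and 32.4 CPM at 4 days and at 0.131, 0.413, 1.85 and 0.5678 CPM at 11 days, against 0.448 to 0.824 CPM in saline. Its mean effect of 2.27 ± 0.60 lay far from each of its 3 effects of 5.50, 0.92 and 0.40. Fbn1, fibrillin of elastic fibres, had effects of 2.47, 0.50 and 0.08.

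These genes were chosen for their differences between times, and the effect was highest at 4 days in each. With the mean of 8 and 11 days alone, as a description, Fbn1 was at 0.29 (adjusted p = 0.536), Fstl1 at 0.42 (0.325), Loxl2 at 0.08 (0.911), Tnc at 0.66 (0.686) and Vcan at 0.10 (0.85). Fbn1 and Fstl1 kept their calls with any 1 library left out. Vcan lost its call when saline A, saline C, saline D, 8-day A, 8-day C or 11-day A was left out (adjusted p 0.0501 to 0.121). Loxl2 lost its call without 8-day C or any of saline A, C and D (0.0554 to 0.102), and Tnc without saline A, saline C or 8-day C (0.0735 to 0.11). Genes with no mean effect but clear differences between times included Gsn, gelsolin, at -0.47, 0.07 and 0.45, and Dstn, destrin, at 0.41, -0.20 and -0.32, both cutters of actin filaments. Asnsd1 went from -0.29 to 0.28.

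**Figure D4:**
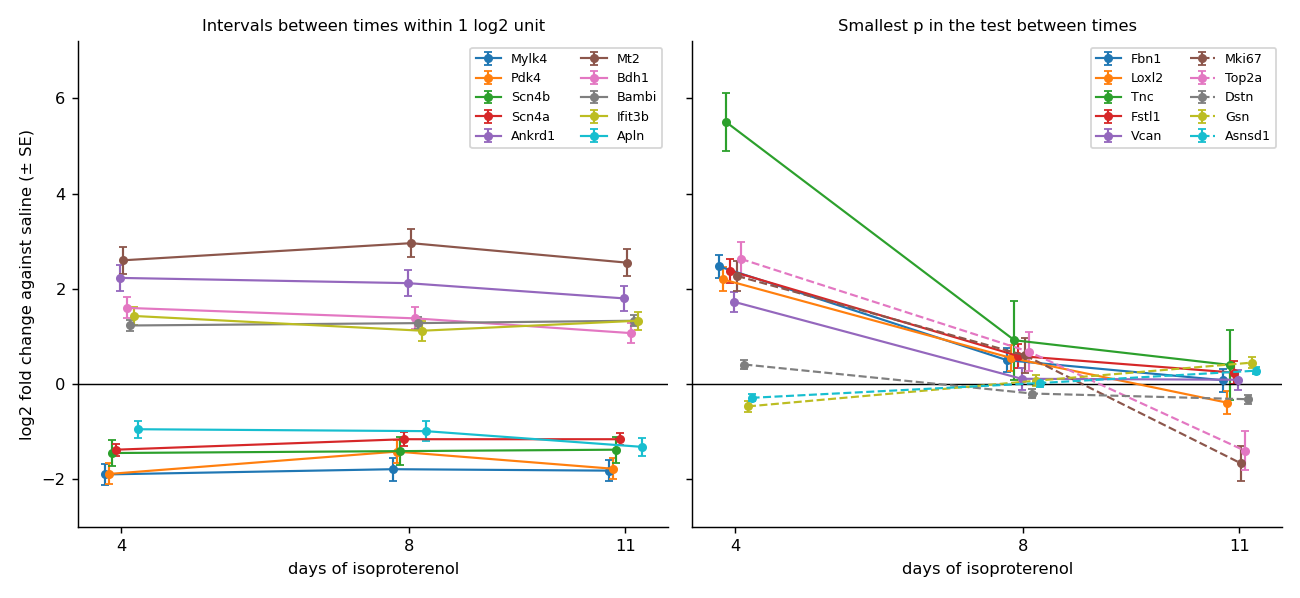
Log2 fold change against saline (± SE) at 4, 8 and 11 days for the 10 steady genes (left) and for the 10 genes with the smallest p in the test between times (right). Dashed lines are genes without a mean effect past the threshold. Bambi stays between 1.23 and 1.33, while Tnc goes from 5.50 to 0.40 and Mki67 from 2.27 to -1.67.

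Markers of the cell types in the tissue moved with several of these groups, and their part in the results was not tested. Fibroblast markers were higher in 8 of 12 cases and lower in none (median 0.53). Their sum was 855 to 1040 CPM in saline and 1270 to 2560, 1090 to 1470 and 1180 to 1550 CPM at 4, 8 and 11 days, above saline in every treated heart. Activated fibroblast markers were higher in 5 of 12 (median 1.57), with a sum of 47.7 to 79.7 CPM in saline, 235 to 918 CPM at 4 days and 54.1 to 207 CPM at 11 days. Cilp, a matrix protein among them, rose by 2.59 ± 0.51, and Pi16, a marker of resting fibroblasts, by 1.38 ± 0.21. With 8 and 11 days alone, 3 fibroblast and 2 activated fibroblast markers were higher.

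Macrophage markers were higher in 8 of 16 cases and lower in 1 (median 0.44). Their sum was 133 to 213 CPM in saline and 249 to 401 CPM at 4 days, and it overlapped saline later (189 to 250 CPM). Lyz2, lysozyme, rose by 0.99 ± 0.18 and C1qa by 0.54 ± 0.12, and Cx3cr1 fell by 0.84 ± 0.25. The 1 lower call was lost without any 1 of saline A and C, 4-day A, 8-day A and B, and 11-day A, B and D. The count higher was 3 without saline A, 2 without saline C, 5 without saline D, 5 without 8-day C and 1 without day 4. Over all treated hearts the macrophage sum lay between 189 and 401 CPM, beside the 6 of 19 class II genes that were lower. Among lymphocyte markers Cd79a, of B cells, was the 1 of 12 called lower (-1.43 ± 0.39, on 44 reads in saline, adjusted p 0.0885 without saline A and 0.0854 without saline C), with a list median of -0.92. The lymphocyte count was 3 without 4-day C, 2 without saline D and 0 with DESeq2. The lymphocyte sum was 4.43 to 5.98 CPM in saline and 2.96 to 6.28 CPM in treated hearts.

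The myocyte sums changed little beside these. Of 13 cardiomyocyte markers 1 was higher and 4 lower (median -0.07). Endothelial markers had 2 lower of 14 (median -0.06), the water channel Aqp1 (-0.70 ± 0.11) and Cd36. The sum of the 14 was 1420 to 1550 CPM in saline and 1040 to 1380 CPM in treated hearts, without overlap. Cd36 alone, also a member of the fatty acid list, held 631 to 779.5 CPM in saline and 398 to 576.1 CPM in treated hearts. A score of the endothelial markers per library, centred on saline, did overlap, at -0.16 to 0.16 in saline and -0.28 to 0.04 in treated hearts. Whether endothelial content fell was not tested. Atrial markers had 1 higher and 1 lower of 8 (median 0.02), Nppa and Tbx5. Smooth muscle and pericyte markers had Des higher (0.40 ± 0.092) and Abcc9 lower (-0.33 ± 0.085) of 12 (median 0.12). Des is also a higher member of the fetal and hypertrophic program, so in this bulk tissue its rise cannot be assigned to these cells. Des was not called without saline C (adjusted p = 0.0529), nor Abcc9 without saline A (0.058). The count higher was 0 without saline C, 3 without saline D and 2 without 8-day C. Of skeletal muscle markers Acta1 alone of 7 was higher (median 0.30). No marker of neutrophils and mast cells (8 tested, median 0.04), Schwann cells and neurons (7, -0.01), adipocytes (5, -0.32) or epicardium (6, -0.24) was called by edgeR. At an unadjusted p under 0.05 these lists held 1 lower, then 1 higher and 1 lower, then 0 and 0 in the same order, and DESeq2 without length offsets called 1 of the neutrophil and mast cell markers lower. By edgeR that list had 1 lower without 4-day C or saline D, and Schwann cells and neurons had 1 lower without saline B.

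Erythrocyte markers were lower in all 5 cases (median -1.44), but the calls hung on 1 saline heart and on the settings of the test. Hba-a2, alpha globin, was at 75.1, 142.1, 68.7 and 24.65 CPM in saline and at 9.66, 21.4 and 51.3 CPM after treatment, so the lowest saline heart lay among the treated ones. The fall was -1.55 ± 0.39 (adjusted p = 0.0154). Without saline B the adjusted p was 0.101 and none of the 5 was called, and without saline A 3 were. With all hearts kept, none was called with robust dispersions or at an adjusted p under 0.01, and 2 were with 8 and 11 days alone. Hba-a1 is near-identical to Hba-a2 and shares its reads.

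**Figure D5:**
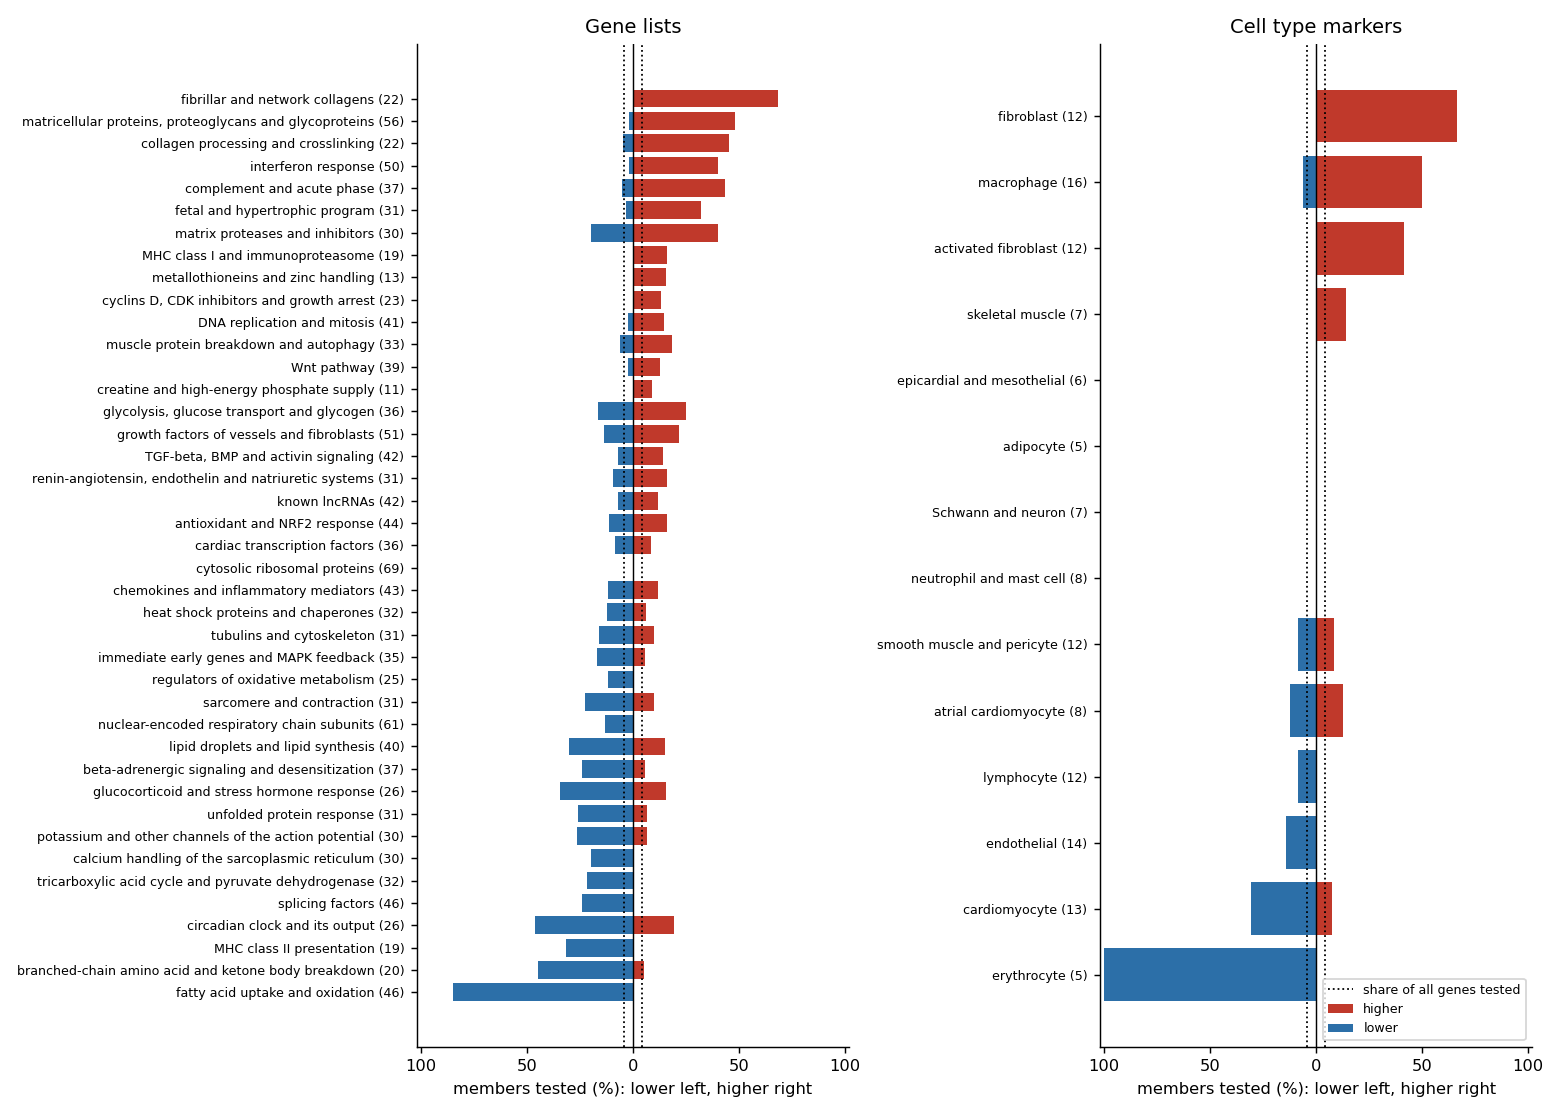
Share of the tested members of each gene list (left) and marker list (right) that were higher (red, to the right) or lower (blue, to the left) in the mean of the treated hearts. Numbers in brackets are members tested, and dotted lines are the shares over all genes, 4.36% higher and 4.17% lower. Among genes of at least 5 CPM the shares, not drawn, were 7.83% higher and 9.06% lower, so a bar just past a dotted line is not set apart from expressed genes. Fatty acid genes reach farthest to the left among pathways with 39 of 46, and collagens farthest to the right with 15 of 22.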

How the data were processed

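Total RNA of 15 mouse hearts was sequenced (Illumina TruSeq total RNA kit). Per the submitters' processing notes and the study's methods, the authors used cutadapt 4.1 for trimming, HISAT2 2.2.1 for alignment to GRCm38.p6 and RSEM 1.3.3 for quantification. They deposited estimated counts (RSEM expected counts) per gene, not normalized, and the deposited effective length of each gene was used as an offset in 1 alternative. The deposited FPKM and TPM values and isoform tables were not used here. The methods state that 1 replicate of the 8-day group was excluded. The strand setting of the counting is not given in the sources used here, so a gene and its antisense partner cannot be told apart. Libraries held 25.4 to 118 M counts, and no pair of replicates agreed within sampling noise. Whether every replicate letter is a separate animal is not stated per sample, and p-values measure the spread between these libraries. Whether the small groups or the depth limit the precision more was not tested.

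After rounding, a gene was tested when its counts over the 15 libraries added up to 10 or more. Counts were scaled by TMM and fitted with 1 mean per group in edgeR 4.0.16 (R 4.3.3, limma 3.58.1). The mean of the 3 treated groups was tested against saline with the two-sided quasi-likelihood test, and equality of the 3 treated means with an F test in the same fit, both with Benjamini-Hochberg adjustment over all genes and a threshold of 0.05. The SE is the log2 fold change divided by the square root of F. A steady gene has the 95% intervals of all 3 differences between times within 1 log2 unit. Adjusted p-values are from this fit unless another setting or a left-out library is named. Names, types and positions of genes were taken from GENCODE M21 (55141 of 55401 identifiers matched) and promoters from RefSeq (GRCm38.p6).

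Named genes were the 10 highest and 10 lowest fold changes among called genes of at least 5 CPM with no overlap of treated and saline hearts, up to 2 called members with the smallest p per list, the 4 highest and 4 lowest lncRNAs of at least 1 CPM with no overlap, the 5 highest and 5 lowest steady genes of at least 5 CPM, and the 5 genes with the smallest p between times among called and among other genes. The comparison, the 41 gene lists and the 14 marker lists were chosen with earlier results of these data known, so lists are described by counts and medians and were not tested as sets. Alternatives were other scalings, filters and dispersions, effective lengths as offsets, DESeq2 1.42.0, limma voom, the replicate letter as a block, other weightings of the times, a stricter threshold and each library left out in turn. The analysis was tested on simulated data. Some genes of the lists are not reported here by name.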

Additional observations from a re-analysis of the deposited data

Results flagged for a closer look

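Dixon's test examined 357 groups of 4 values, from the 116 named genes and from 3 library measures. These were the total counts, the mitochondrial share and the share of Lars2 and CT010467.1. Of the groups, 17, all of named genes, held a heart set apart from the other 3 by a gap above the 95% critical value. The gap was taken as a share of the range of its group. Chance gives about 1 in 20 such groups, and the 3 hearts at 8 days were too few to be examined. In saline, heart B was highest for H2-Eb1 (0.957 of the range), Cilp (0.961) and Vcan (0.892), and heart C was lowest for Gm49891 (0.928). At 4 days, heart B was highest for Cp (0.910), Myl3 (0.902) and Gm10635 (0.852), and heart C was lowest for Cacnb2 (0.90). At 11 days, heart B was highest for Apln (0.832) and Hopx (0.975) and lowest for Dstn (0.924). Heart C of that time was highest for Cilp (0.880) and Fstl1 (0.920) and lowest for Myl3 (0.881) and Tubb4b (0.837). Heart D was highest for Hba-a2 (0.910) and Ppargc1b (0.859).

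For 35 of the 116 named genes the effect of isoproterenol differed between 4, 8 and 11 days (adjusted p of the F test of edgeR). Among matrix and fibroblast genes these were Fbn1, Loxl2 and Tnc (each 3.72e-05), Fstl1 (8.84e-05), Vcan (0.000111), Bgn (0.000293), Col16a1 (0.000548), Bmp1 (0.00134), Adamts12 (0.0021), Thbs4 (0.00219), Prg4 (0.00541), Sfrp2 (0.00548), Col14a1 (0.00606) and Cilp (0.0136). Genes of dividing cells were Mki67 and Top2a (each 3.72e-05) and E2f1 (0.0012). Clock genes were Nr1d1 (0.00184) and Ciart (0.0053). Immune and acute phase genes were Serpina3n (0.000695), Lyz2 (0.00854) and H2-Aa (0.0405). Muscle genes were Mylk3 (0.00968), Acta1 (0.0132), Hspb7 (0.0319) and Nppa (0.0406). Metabolic genes were Glul (0.023), Suclg2 (0.0371) and Acot1 (0.0498). The rest were Dstn (0.000167), Gsn (0.000191), Asnsd1 (0.000482), Aqp1 (0.0133), Dnajb5 (0.0169) and the lincRNA Gm10635 (0.0263). Fbn1, Loxl2, Tnc, Fstl1, Vcan, Mki67, Top2a, Dstn, Gsn and Asnsd1 were named for their small p in this same test. Their passing was thus fixed by the choice, and 35 of 116 is not a share to expect of other genes. Over all genes tested, 1538 of 26862 passed (5.73%).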

How the results depend on the processing

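With library size alone as scaling, 540 genes were higher and 373 lower (59.1% of calls higher, against 51.1%), 421 called genes were steady, and 196 lay fully above and 156 fully below saline. With effective lengths as offsets, 766 were higher, 1061 were steady and 1009 differed between times, and with limma voom 2570 differed between times. With treated libraries as 1 group 715 were higher and 723 lower, and with 8 and 11 days alone 761 were higher. At an adjusted p under 0.01, 530 were higher, 539 lower, 623 differed between times and 793 were steady. Leaving out 1 library in turn gave 700 to 1348 higher, 754 to 1265 lower, 610 to 2122 differing between times, 1088 to 1886 steady, and 428 to 818 above and 398 to 759 below without overlap. The counts without overlap can, apart from rescaling and the filter on low counts, only grow when a library is left out. The cause was not tested for these shifts or for the medians that turned, of lists with few or no calls, namely those of adipocyte (0.183 with limma voom, -1.098 to 0.263 with 1 library left out, the highest without saline B), epicardial (0.313 with limma voom, 0.066 without saline B, and -0.539 to 0.730 with 1 library left out, the highest without saline C), skeletal muscle (-0.046 with limma voom, -0.115 with 4 and 11 days), DNA replication (-0.038 with 8 and 11 days) and heat shock genes (-0.184 to 0.041 with 1 library left out, the highest without saline B). Of 116 named genes, 111 were called, and 78 of these kept the call under all 31 settings. The settings that ended most calls were library size alone (22), 8 and 11 days alone (14), treated libraries as 1 group (12), an adjusted p under 0.01 (11) and the one without saline A (8). With 8 and 11 days alone the calls of Klf9, Bmp1, H2-T22, E2f1, Phlda3, Des, Abcc9, C1qa, Acta1, Fbn1, Loxl2, Tnc, Fstl1 and Vcan ended, and all of these except Des and C1qa also ended with treated libraries as 1 group. Elsewhere P3h2, Alas2 and Hba-a2 lost theirs. No strong pairing by replicate letter was seen, though a weak one could be missed by this check. Of 21 pairs with the same letter, 4 had deviations correlated over 0.1 (-0.267 to 0.235), and 2 of 15 libraries correlated best with their own letter. With the replicate block 1020 genes were higher, 959 lower and 1266 differed between times, and of the named genes Vcan lost its call (adjusted p = 0.0562).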
